A study of Mus musculus with 11 samples.

Results

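Expression of the translation initiation factor genes was examined in single mouse 8-cell embryos with and without functional *Prdm10*. The group was defined by name: protein-coding genes whose symbol begins with Eif and a digit from 1 to 6, leaving out the Y-linked *Eif2s3y* and all pseudogenes. It held 54 of the 54146 genes in the tables, and the rule used no measured value. For 49 of the 54 the mean normalised count over all embryos (baseMean) was above 10, the minimum for a gene to be called. The other 5, *Eif2ak2*, *Eif2ak4*, *Eif4e1b*, *Eif4e3* and *Eif4ebp3*, had a baseMean of at most 7.91 and are described by level only. Each library came from 1 C57BL/6 embryo (embryonic day 2.5) whose parents were both heterozygous for the *Prdm10* deletion. The 6 control embryos were *Prdm10* WT/HET, so wild-type and heterozygous embryos were not kept apart, and the 5 mutant embryos were *Prdm10* KO, with exon 5 deleted on both alleles. Embryos were put in these groups from the detection of that exon in their own cDNA. Batch 1 (16 cycles of PCR) held 3 controls and 2 mutants, and batch 2 (13 cycles) held 3 controls and 3 mutants.

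Initiation of translation places a ribosome at the start codon of an mRNA. eIF2 brings the initiator tRNA to the small ribosomal subunit, eIF3 holds the small subunit together with the other factors, and the cap-binding complex eIF4F recruits the mRNA, after which eIF1, eIF1A, eIF5 and eIF5B select the start codon and join the large subunit. eIF2B recharges eIF2 with GTP, and kinases that phosphorylate eIF2 block that step under stress. Cleavage-stage embryos rely on stored maternal mRNAs as well as on transcripts made after genome activation, and the libraries measured both together. PRDM10 is a zinc finger transcription factor, and *Eif3b*, a core subunit of eIF3, is the target to which the study gave priority. Other targets, among them *Rpl19* and *Eef1d*, were also knocked down there.

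Of the 54 genes, *Eif3b* and *Eif4a1* are on the study's list of genes with a PRDM10 binding site in mouse embryonic stem cells, so the 250 bases before the transcription start of each were read from RefSeq (GRCm38.p6). The *Eif3b* window is at chr5:140419055-140419304 on the plus strand, and the *Eif4a1* window is at chr11:69672424-69672673 on the minus strand. Both are shown 5′ to 3′ below, together with the wild-type and mutant DNA probes that the study used to test PRDM10 binding. In the probes, capitals mark the 8 bases of 28 that differ between them. In the promoters, capitals mark GAGCCACAT, the longest run of letters that the windows share on the strand shown.
wild-type probe: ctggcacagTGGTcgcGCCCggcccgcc
mutant probe: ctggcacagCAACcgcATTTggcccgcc
Eif3b promoter: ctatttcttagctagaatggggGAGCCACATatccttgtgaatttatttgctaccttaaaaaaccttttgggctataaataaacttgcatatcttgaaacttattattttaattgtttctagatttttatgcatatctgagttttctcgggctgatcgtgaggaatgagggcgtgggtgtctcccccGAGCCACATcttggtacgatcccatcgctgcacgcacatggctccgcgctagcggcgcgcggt
Eif4a1 promoter: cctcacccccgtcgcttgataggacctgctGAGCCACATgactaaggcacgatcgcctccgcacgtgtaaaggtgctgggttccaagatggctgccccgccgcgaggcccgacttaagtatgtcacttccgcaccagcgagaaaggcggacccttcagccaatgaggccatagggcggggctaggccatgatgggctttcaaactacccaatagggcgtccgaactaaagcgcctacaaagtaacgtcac

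The stretch of the wild-type probe from its first to its last differing base, TGGTCGCGCCC, was searched on both strands of each 300-base window, which runs on for 50 bases past the start. Allowing 2 mismatches, it was found in 10.4% of all 32851 windows. In the *Eif3b* window the best fit had 4 mismatches, and in the *Eif4a1* window 3, so neither held it at that limit. The stretch comes from a single probe and is not the study's consensus motif, which was not searched for here. The counts therefore say nothing of whether that motif lies in or near either promoter. For *Eif3b* the study itself reports 2 neighbouring PRDM10-bound regions in the promoter, both with a match to its motif. Each also drove a reporter when PRDM10 was overexpressed. Where these regions lie relative to the window shown was not examined. The RefSeq table had a window for 42 of the 54 genes, with 55 windows in all. Of these 55, 10 held a match (18.2%), and they belonged to 8 genes: *Eif2ak3*, *Eif2ak4*, *Eif2b4*, *Eif3d*, *Eif4ebp2*, *Eif4enif1*, *Eif5* and *Eif5a2*. Windows of the group were richer in G and C than all windows (medians below), and the share was not corrected for this. Windows of 1 gene can also overlap, as 2 matching windows of *Eif4enif1* do. GAGCCACAT was noticed only after the sequences had been read. It occurs 2 times in the *Eif3b* window and 1 time in the *Eif4a1* window, and on either strand in the upstream bases of 65 of all windows (0.198%). Its presence in both windows was fixed by how it was chosen, and how long a run any 2 windows share was not tested, so it is given only to explain the capitals. The *Eif3b* window was 44.8% G and C with 13 CG dinucleotides, against medians of 61.2% and 19 over the windows of the group and of 52.4% and 6 over all windows.

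The summed expected counts ranged from 3534735 to 8265840 per library. Of 8 markers of the 8-cell embryo, 7 were detected in all 11 libraries, the exception being *Sox2*, and their summed TPM ranged from 6595 to 7727 in controls and from 6539 to 7428 in mutants, a sum carried by *Dppa3* and *Obox6*. Single markers did not all hold their level: *Klf5* was called higher in mutants (97.1 and 172 mean TPM, log2 fold change 0.84, DESeq2 adjusted p = 1.07e-06), while *Pou5f1* had 0.90 (adjusted p = 0.123) and *Nanog* -1.05 (adjusted p = 0.167). Their part in the results below was not tested. Markers of cumulus and granulosa cells summed to 0 TPM in every control and to at most 7.83 in a mutant, those of oviduct epithelium to at most 32.4, and those of blood to at most 10.9. *Prdm10* itself averaged 236 ± 85.2 normalised counts over the 6 controls and 151 ± 39.4 over the 5 mutants (SD), and its log2 fold change of -0.66 ± 0.26 (SE) was not called (DESeq2 adjusted p = 0.215, edgeR adjusted p = 0.407). Its count covers all exons, not the deleted one by itself. With 8 cells pooled in a library, fewer cells of a type and less RNA per cell cannot be told apart.

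Initiation factor mRNAs were abundant. The 54 genes together made up 1.87% ± 0.11 (SD, n = 6) of all transcripts by TPM in controls and 1.89% ± 0.18 (SD, n = 5) in mutants. TPM is a transcript level scaled by gene length and by the library total, and it is the scale on which genes are compared here. In controls 6 genes exceeded 1000 TPM, 28 lay between 100 and 1000, 12 between 10 and 100, and 8 below 10. By mean over both batches the highest level was that of *Eif5a*, which encodes a factor that helps the ribosome through difficult peptide bonds, at 2173 ± 424 TPM (SD, n = 6). Next came *Eif1* (1764 ± 518 TPM), *Eif5* (1652 ± 196 TPM), *Eif4e* (1393 ± 266 TPM), *Eif2s2* (1087 ± 125 TPM) and *Eif4a3* (1018 ± 80.8 TPM). They act at different steps, from cap binding (eIF4E) and initiator tRNA delivery (eIF2β) to start codon recognition (eIF1, eIF5), and eIF4A3 belongs to the exon junction complex. In mutants the means of *Eif5a*, *Eif1* and *Eif5* were 2335 ± 271, 1804 ± 312 and 1792 ± 342 TPM (SD, n = 5). *Eif5a* was above *Eif5* in all 11 embryos, but above *Eif1* in 5 of 6 controls and 4 of 5 mutants, and *Eif1* was above *Eif5* in only 2 of 6 controls and 3 of 5 mutants. The levels of *Eif1* differed between batches, with control means of 1393 TPM in batch 1 and 2136 TPM in batch 2, so that in the batch 2 controls its mean was above that of *Eif5a* (1942 TPM).

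**Figure D1:**
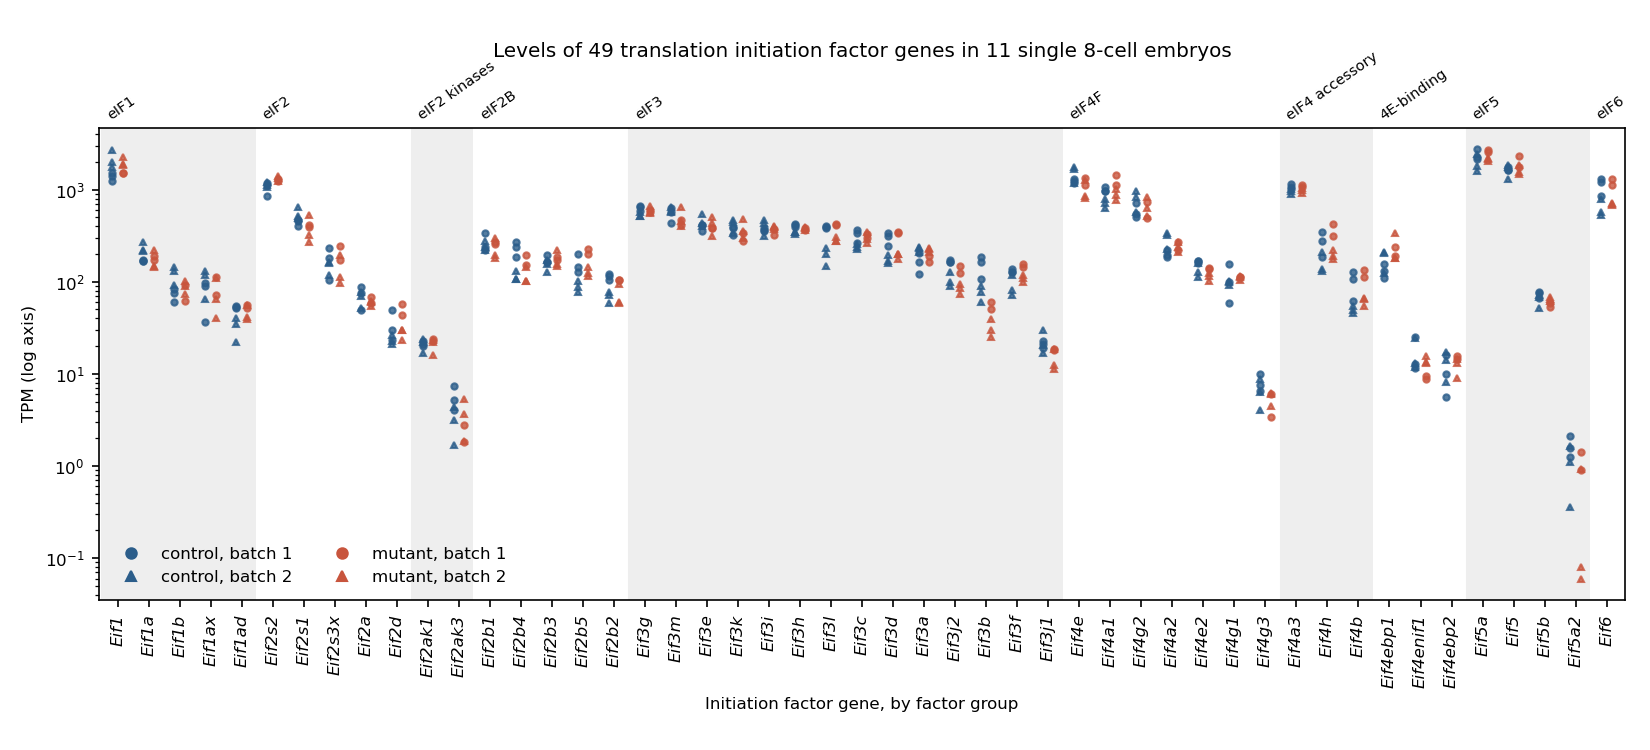
TPM (log axis) of the 49 initiation factor genes with a baseMean above 10 in each of 11 embryos, with genes on the x axis ordered by factor group and falling control mean. Blue marks are the 6 controls and red marks the 5 mutants, circles batch 1 and triangles batch 2. Levels run from 0.06 TPM in a mutant embryo for *Eif5a2* to over 1000 TPM for *Eif5a*, *Eif1* and *Eif5*, and the mutants of *Eif3b* lie below the controls of their own batch, although over both batches its groups overlap (60.4 TPM in a mutant, 59.6 TPM in a control).

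Levels differed widely between members of a factor group. The eIF1 group ran from *Eif1* down to *Eif1ad* at 42.7 ± 12.7 TPM (SD, n = 6), and eIF2 from *Eif2s2* down to *Eif2d* at 28.8 ± 10.6 TPM. The 5 eIF2B genes lay closer together, from *Eif2b1* at 255 ± 46.6 TPM to *Eif2b2* at 91.4 ± 25.4 TPM. Kinases of eIF2 were the lowest group. *Eif2ak1*, which encodes the kinase that senses heme, was at 21.1 ± 2.56 TPM and *Eif2ak3*, the kinase of endoplasmic reticulum stress, at 4.31 ± 1.94 TPM. *Eif2ak4*, the kinase of amino acid starvation, averaged 0.188 TPM and was at 0 in 2 libraries. *Eif2ak2*, the kinase activated by double-stranded RNA, was at 0 in 9 of 11 libraries.

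Close relatives within a group were expressed very unequally, and their order was the same in all 11 embryos for each pair below. *Eif1* was 18.1-fold above *Eif1b* by control mean TPM. *Eif4e*, the main cap-binding protein, was 9.35-fold above *Eif4e2*, whose product binds caps without eIF4G. Among the other cap-binding genes *Eif4e3* averaged 0.768 TPM in controls, and *Eif4e1b* averaged 0.275 TPM and was at 0 in 4 libraries. *Eif4a1* exceeded *Eif4a2* by 3.45-fold, *Eif4g1* exceeded *Eif4g3* by 14.1-fold, and *Eif5a* at 2173 TPM stood against 1.34 TPM for *Eif5a2*. *Eif1a* was above its X-linked relative *Eif1ax*, at 202 ± 40.9 and 89.4 ± 34.9 TPM (SD, n = 6). Embryo sex was not taken into account, and its part in the values of *Eif1ax* or of the X-linked *Eif2s3x* was not tested.

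Within eIF3, *Eif3g* and *Eif3m* had the highest control levels, at 582 ± 60.9 and 573 ± 78.5 TPM (SD, n = 6), and they did not keep an order between embryos. *Eif3e*, *Eif3k*, *Eif3i* and *Eif3h* followed at 427 to 376 TPM without a fixed order among themselves, although *Eif3m* was above *Eif3e*, and *Eif3h* above *Eif3l*, in all 6 controls. *Eif3l* (292 ± 111 TPM), *Eif3c* (282 ± 56.3 TPM), *Eif3d* (236 ± 75.9 TPM) and *Eif3a* (194 ± 44.1 TPM) came next, and of these neighbours *Eif3c* was above *Eif3d* in all 6 controls. *Eif3j2* (136 ± 35.7 TPM), *Eif3b* (114 ± 50.5 TPM) and *Eif3f* (110 ± 27.3 TPM) were near the bottom, with *Eif3b* above *Eif3f* in 3 of 6 controls. *Eif3j1* was lowest at 21.8 ± 4.39 TPM. In control embryos *Eif3b* was therefore already among the least abundant mRNAs of a complex whose subunits assemble together, at position 10 to 13 of 14 in every control.

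*Eif3b* mRNA fell in the mutants. EIF3B carries an RNA-recognition motif and a propeller domain, and it ties the eIF3a, eIF3g and eIF3i subunits together. The gene (ENSMUSG00000056076.13) is on the plus strand of chromosome 5, at 140419328 to 140443360 of GRCm38. In batch 1 it had normalised counts of 1450, 1988 and 1014 in controls 4, 5 and 6 and of 577 and 509 in mutants 4 and 5. In batch 2 these were 769, 639 and 596 in controls 1, 2 and 3 and 295, 386 and 270 in mutants 1, 2 and 3. Every mutant was below every control of either batch, although mutant 4 of batch 1 came close to control 3 of batch 2.

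The log2 fold change of *Eif3b* was -1.24 ± 0.20 (SE), a level 2.37-fold lower in mutants, with a DESeq2 adjusted p of 4.68e-07 over all genes and an edgeR quasi-likelihood adjusted p of 0.00694. The 95% interval of the log2 fold change ran from -1.63 to -0.85. Within batch 1 alone the log2 fold change was -1.44 ± 0.30 (SE) and within batch 2 alone -1.08 ± 0.28 (SE), with DESeq2 adjusted p of 5.88e-04 and 0.0382. The difference between batches was within its error (interaction, DESeq2 unadjusted p = 0.355, adjusted p = 1.00). Controls of batch 1 had higher counts of *Eif3b* than controls of batch 2, and the same held for the mutants, and the difference was also read within batches.

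On the scale per length, *Eif3b* was at 164, 187 and 107 TPM in the batch 1 controls and at 60.4 and 50.4 TPM in the batch 1 mutants. The batch 2 controls had 88.8, 78.1 and 59.6 TPM and the batch 2 mutants 30.3, 39.3 and 25.1 TPM. Groups did not overlap within either batch, but across batches the highest mutant (60.4 TPM) was just above the lowest control (59.6 TPM). The means were 114 ± 50.5 TPM (SD, n = 6) and 41.1 ± 14.5 TPM (SD, n = 5), which differed in a two-sided exact permutation test over the 462 splits of the embryos (p = 0.00866, where a single split of 462 is 0.00216). That test exchanges embryos across batches, although *Eif3b* TPM differed between batches within each group. With embryos exchanged only within a batch, 200 splits, the mean of the batch differences was -70.5 TPM and the two-sided exact permutation p was 0.01. The study chose *Eif3b* partly because it was lower in these same embryos. Neither permutation p is therefore independent support for the fall, and neither was adjusted for the number of genes. By mean TPM *Eif3b* was number 32 of the 54 genes in controls and number 41 in mutants, a move of 9 places, while no other gene with a baseMean above 10 moved by more than 5.

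**Figure D2:**
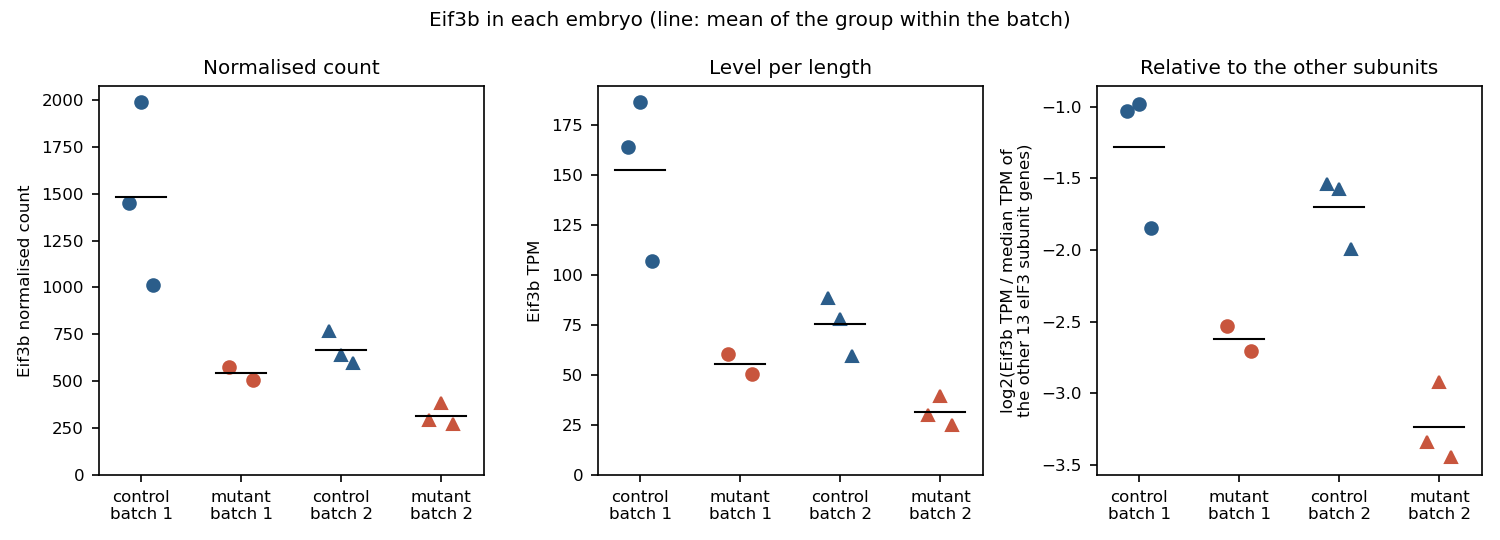
*Eif3b* in each embryo, by batch and group, as normalised count (left), TPM (middle) and log2 ratio of its TPM to the median TPM of the other 13 eIF3 subunit genes in the same embryo (right). Horizontal lines are means within a batch. The mutants of each batch sit below all of its controls on every scale, and the log2 ratio is -2.53 or lower in all mutants against -1.99 or higher in all controls.

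Against its own complex the shortfall of *Eif3b* was plain. The median TPM of the other 13 subunit genes was 302 ± 67.9 over the 6 controls and 312 ± 29.1 over the 5 mutants (SD). Within batches it moved in opposite directions, with means of 362 TPM in controls and 340 TPM in mutants of batch 1, where the groups overlapped, and of 243 TPM (233 to 258) and 293 TPM (274 to 307) in batch 2, where they did not. In batch 2 the ratio below therefore holds both a lower *Eif3b* and a higher median of the others. The log2 ratio of *Eif3b* to that median was -1.03, -0.98 and -1.85 in the batch 1 controls and -2.53 and -2.71 in the batch 1 mutants. In batch 2 it was -1.54, -1.57 and -1.99 in controls and -3.34, -2.93 and -3.45 in mutants. Controls and mutants did not overlap over all 11 embryos. *Eif3b* made up 7.18% ± 2.64 (SD, n = 6) of the summed TPM of the 5 core subunits *Eif3a*, *Eif3b*, *Eif3c*, *Eif3g* and *Eif3i* in controls and 2.72% ± 1.00 (SD, n = 5) in mutants. It was number 13 of the 14 eIF3 genes in each of the 5 mutants, above *Eif3j1* alone. The ratio rests on the same counts as the fold change, so it is given as a description without a test.

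None of the other 13 eIF3 subunit genes was called. Their log2 fold changes ran from -0.39 to 0.36 with a median of 0.03, against a median of 0.00 over all genes with a baseMean above 10, and 7 were above 0 and 6 below. The 95% interval of each of the 13 lay within 1 of 0, from a lowest bound of -0.75 to a highest bound of 0.67, so a fall as large as the one fitted for *Eif3b* was outside the interval of every other subunit. Among the other core subunits, which form the scaffold together with EIF3B, *Eif3a* had a log2 fold change of 0.05 ± 0.13 (SE), *Eif3c* 0.16 ± 0.14, *Eif3g* 0.04 ± 0.12 and *Eif3i* -0.06 ± 0.14. The 6 remaining subunits with an unadjusted p above 0.05 had values between -0.26 (*Eif3m*) and 0.24 (*Eif3f*), with *Eif3k* at -0.21 ± 0.17, *Eif3e* at -0.09 ± 0.16, *Eif3h* at 0.03 ± 0.12 and *Eif3d*, whose product can itself bind caps, at 0.18 ± 0.12.

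In 3 of these 13 genes (23.1%, against 11.9% of all genes) the unadjusted p was under 0.05 but the adjusted p was not. The 13 had a median control level of 292 TPM, against 12.2 TPM over all genes with a baseMean above 10, so the shares are not at matched levels. *Eif3l* had 2795, 3170 and 3491 normalised counts in the batch 1 controls and 3285 and 3479 in the batch 1 mutants, and 1384, 2115 and 1976 in the batch 2 controls and 2821, 2686 and 2571 in the batch 2 mutants. The mutants of batch 2 were all above its controls, while those of batch 1 lay among theirs. In TPM the mutants were above the controls of their own batch in both, at 415 and 426 against 380, 392 and 399 in batch 1 and at 307, 277 and 274 against 149, 233 and 201 in batch 2. Its log2 fold change was 0.36 ± 0.16 (SE; DESeq2 adjusted p = 0.320, edgeR adjusted p = 0.451), and the difference between batches did not pass the interaction test (unadjusted p = 0.127). *Eif3j1* and *Eif3j2* encode eIF3j, a loosely bound subunit, and had log2 fold changes of -0.39 ± 0.18 and -0.30 ± 0.15 (SE; adjusted p = 0.376 and 0.401).

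The *Eif3j1* normalised counts were 431, 402 and 560 in the batch 1 controls and 360 and 432 in the batch 1 mutants, and 557, 500 and 472 in the batch 2 controls and 305, 462 and 302 in the batch 2 mutants. For *Eif3j2* they were 1553, 1652 and 1778 against 1220 and 1502 in batch 1, and 1478, 1110 and 1092 against 962, 1140 and 853 in batch 2. In each gene 1 batch kept the groups apart and the other did not. Of the 75-base words in the annotated *Eif3j2* transcripts, 87.4% also occur in *Eif3j1* transcripts, so reads of one could be assigned to the other. The median RSEM posterior SD was 4.79% of the count for *Eif3j1* and 1.49% for *Eif3j2*, and with the pair summed the log2 fold change was -0.33 ± 0.15 (SE; DESeq2 adjusted p = 0.330). No 75-base word of *Eif3b* occurs in a transcript of another gene.

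**Figure D3:**
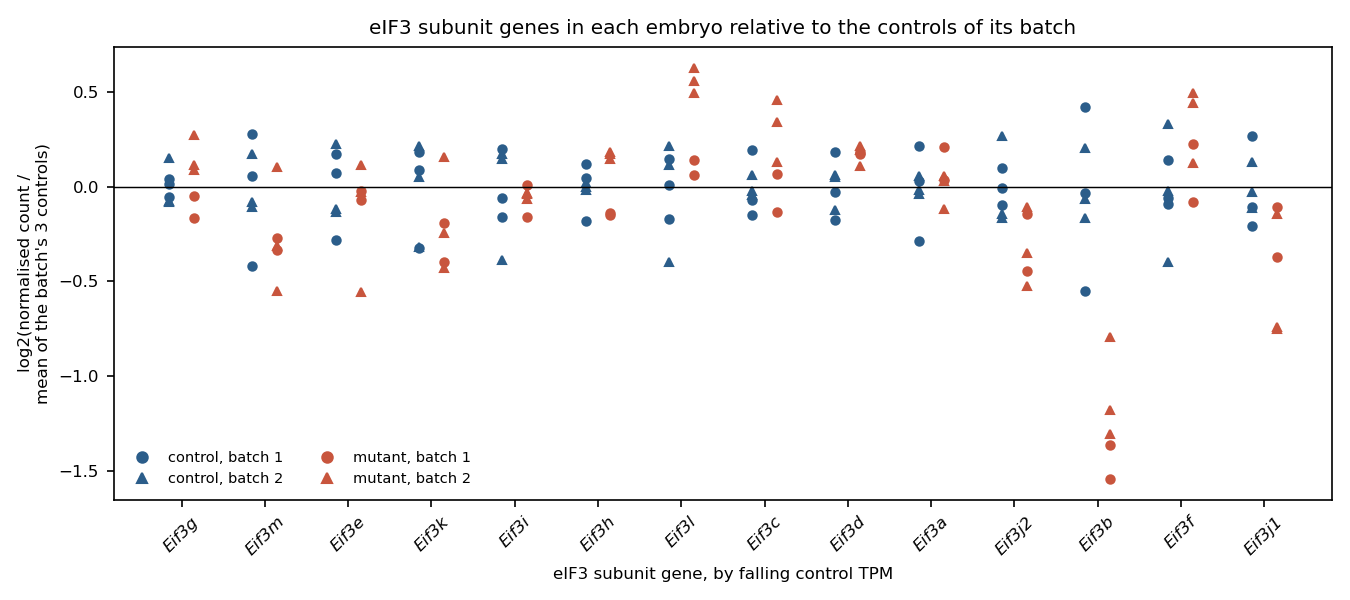
Normalised counts of the 14 eIF3 subunit genes in each embryo, as log2 of the ratio to the mean of the 3 controls of the same batch, ordered from left to right by falling control TPM. Blue marks are controls and red marks mutants, circles batch 1 and triangles batch 2. The 5 mutants of *Eif3b* lie between -1.54 and -0.79, below all its controls, while no mutant of another subunit is below -0.75 (*Eif3j1*) and the highest is at 0.63 (*Eif3l*).

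Over the whole group, *Eif3b* was the only gene called, 1 of 49, and it was lower in mutants. The background was 1.45% of 10448 genes called in either direction and 0.881% called lower, so the count of members called is near the background. By edgeR the call rate was 0.311% of all genes and *Eif3b* was again the 1 member called. *Eif3b* was likewise the only member whose 6 controls and 5 mutants did not overlap in normalised counts, as was the case for 0.925% of genes in either direction and for 0.639% with mutants lower. Within both batches separately the groups were apart for 3 members, *Eif3b* lower and *Eif2b5* and *Eif4a1* higher in mutants, against 2.74% of genes. On the TPM scale, where 0.877% of genes had groups apart over all embryos and 2.46% within both batches, the members apart over all embryos were *Eif2s2* (higher) and no other, and those apart within both batches were *Eif2s2*, *Eif3l* (both higher) and *Eif3b* (lower). Of the 49 log2 fold changes 25 were above 0 and 24 below, with a median of 0.02. For 46 of the 48 members other than *Eif3b* the 95% interval lay within 1 of 0, the exceptions being *Eif4g3* and *Eif5a2*. An unadjusted p under 0.05 was reached by 12 of 49 (24.5%), a larger share than the 11.9% of all genes, with 7 higher and 5 lower in mutants. Apart from *Eif3b* none of these was called, with DESeq2 adjusted p from 0.0914 to 0.431. The 49 genes had a median control level of 174 TPM, against 12.2 TPM over all genes with a baseMean above 10. Their median absolute log2 fold change was 0.18, against 0.27. The shares were not compared at matched levels, so whether the larger one goes with the higher level was not tested.

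**Figure D4:**
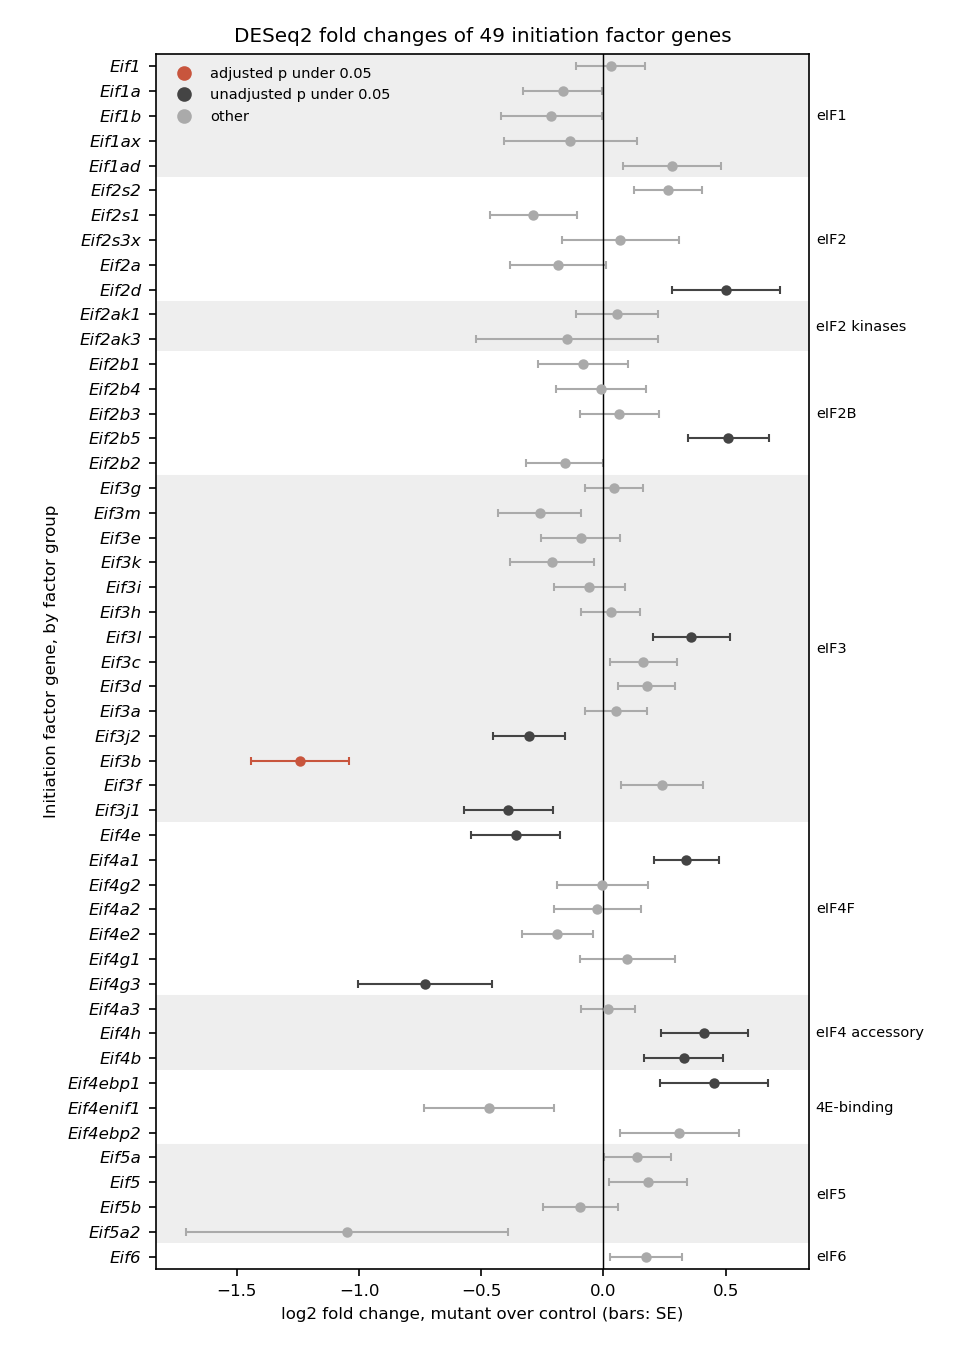
DESeq2 log2 fold changes, mutant over control, of the 49 initiation factor genes with a baseMean above 10, by factor group (bars are SE). Red marks an adjusted p under 0.05, dark grey an unadjusted p under 0.05 only, and light grey the others. *Eif3b* at -1.24 is the only red mark, *Eif5a2* at -1.05 has a wide error, and the rest lie between -0.73 and 0.51.

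No gene of the eIF1, eIF5 and eIF6 groups was called. *Eif1* had a log2 fold change of 0.03 ± 0.14 (SE), *Eif1a* -0.17 ± 0.16, *Eif1ax* -0.14 ± 0.27, *Eif1b* -0.21 ± 0.21 and *Eif1ad* 0.28 ± 0.20, and only *Eif1ad* had the same sign in both batches. *Eif5*, which encodes the protein that triggers GTP hydrolysis by eIF2, had 0.18 ± 0.16, and *Eif5b*, which encodes the GTPase of subunit joining, had -0.10 ± 0.15. *Eif5a* had 0.14 ± 0.14. *Eif5a2* was scarce, at 1.34 ± 0.59 TPM (SD, n = 6) in controls and 0.678 ± 0.59 TPM (SD, n = 5) in mutants, and its log2 fold change of -1.05 ± 0.66 (SE) had a DESeq2 adjusted p of 0.561. *Eif6*, whose product keeps ribosomal subunits apart, was at 881 ± 326 TPM (SD, n = 6) in controls. In mutants it was at 905 ± 291 TPM (SD, n = 5), and its log2 fold change was 0.17 ± 0.15 (SE).

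The 3 subunits of eIF2 did not move together and none was called. *Eif2s1*, the α subunit phosphorylated by the kinases, had a log2 fold change of -0.29 ± 0.18 (SE), *Eif2s2* 0.26 ± 0.14 (DESeq2 adjusted p = 0.453) and *Eif2s3x* 0.07 ± 0.24. *Eif2s2*, which encodes the β subunit, had 852, 1109 and 1176 TPM in the batch 1 controls and 1294 and 1242 in the batch 1 mutants, and 1064, 1199 and 1125 TPM in the batch 2 controls and 1402, 1243 and 1348 in the batch 2 mutants. Every mutant was above every control on that scale, but in normalised counts the groups overlapped in batch 1, with 13200 in control 6 beside 13230 and 13010 in the mutants. The kinases *Eif2ak1* (0.05 ± 0.17) and *Eif2ak3* (-0.15 ± 0.37) were not called. *Eif2a* and *Eif2d* encode proteins that can deliver initiator tRNA without eIF2. *Eif2a* had -0.19 ± 0.20, and *Eif2d* had 0.50 ± 0.22 (DESeq2 adjusted p = 0.318, edgeR adjusted p = 0.473). *Eif2d* was at 228, 376 and 200.0 normalised counts in the batch 1 controls and at 329 and 462 in the batch 1 mutants, and at 170, 228 and 143 in the batch 2 controls and 260, 228 and 244 in the batch 2 mutants. Control 5 was far above the other controls and lay between the mutants of its batch.

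Among the eIF2B genes, *Eif2b5* came closest to the threshold of any uncalled member. It encodes eIF2Bε, the catalytic subunit that exchanges GDP for GTP on eIF2. Its normalised counts were 1361, 954 and 1093 in the batch 1 controls and 1703 and 1559 in the batch 1 mutants, and 505, 667 and 820 in the batch 2 controls and 832, 988 and 1003 in the batch 2 mutants. Mutants were above all controls of their own batch, but the 3 batch 2 mutants lay below or among the batch 1 controls. The log2 fold change was 0.51 ± 0.17 (SE), with an unadjusted p of 0.00198 and adjusted p of 0.0914 (DESeq2) and 0.259 (edgeR). It was 0.53 in batch 1 and 0.50 in batch 2. Without control 3 the DESeq2 adjusted p was 0.0383, so the call turns on that embryo. The other subunits of the complex had log2 fold changes of -0.08 ± 0.18 (*Eif2b1*), -0.16 ± 0.16 (*Eif2b2*), 0.06 ± 0.16 (*Eif2b3*) and -0.01 ± 0.18 (*Eif2b4*).

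The eIF4F group was set by symbol and also holds relatives of the subunits, such as *Eif4e2* and *Eif4g2*. In this group 3 of 7 tested genes (42.9%) had an unadjusted p under 0.05, against 11.9% of all genes. The 7 had a median control level of 249 TPM, against 12.2 TPM over all genes with a baseMean above 10, so the shares are not at matched levels. *Eif4a1* encodes the helicase that unwinds mRNA leaders, and although it is on the list of PRDM10-bound genes its values were higher in mutants. It had 6425, 7562 and 7555 normalised counts in the batch 1 controls and 10220 and 8196 in the batch 1 mutants, and 5223, 6418 and 6388 in the batch 2 controls and 8407, 7591 and 6566 in the batch 2 mutants. Each mutant exceeded all controls of its batch. The log2 fold change was 0.34 ± 0.13 (SE; DESeq2 adjusted p = 0.214, edgeR adjusted p = 0.359), so it was not called. The pseudogene *Eif4a-ps4* shares 22.5% of the 75-base words of *Eif4a1* and had a mean of 986 normalised counts beside 7323 for *Eif4a1*, and with both summed the log2 fold change was 0.36 ± 0.14 (SE; DESeq2 adjusted p = 0.197).

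*Eif4e* had 5556, 6028 and 7671 normalised counts in the batch 1 controls and 5680 and 6828 in the batch 1 mutants, where the groups overlapped. In batch 2 it had 10460, 10240 and 7446 in controls and 7529, 5610 and 5130 in mutants, with 1 mutant just above the lowest control. The log2 fold change was -0.36 ± 0.18 (SE; adjusted p = 0.431), made up of -0.03 in batch 1 and -0.62 in batch 2. *Eif4g3*, a scarce relative of the eIF4G scaffold, had 150, 133 and 150 normalised counts in the batch 1 controls and 68.6 and 67.3 in the batch 1 mutants, and 215, 111 and 108 in the batch 2 controls and 105, 134 and 78.0 in the batch 2 mutants. Its groups were apart in batch 1 and overlapped in batch 2, and the log2 fold change was -0.73 ± 0.27 (SE; adjusted p = 0.189). The other tested genes of the group had log2 fold changes of 0.10 ± 0.19 (*Eif4g1*), -0.0040 ± 0.19 (*Eif4g2*), -0.03 ± 0.18 (*Eif4a2*) and -0.19 ± 0.15 (*Eif4e2*).

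Genes for the helicase cofactors *Eif4b* and *Eif4h* both had unadjusted p under 0.05, with log2 fold changes of 0.33 ± 0.16 and 0.41 ± 0.18 (SE; adjusted p = 0.415 and 0.295). *Eif4b* had 1917, 1692 and 1106 normalised counts in the batch 1 controls and 2075 and 1865 in the batch 1 mutants, and 829.3, 994 and 977 in the batch 2 controls and 1197, 1063 and 1259 in the batch 2 mutants. *Eif4h* had 3263, 2872 and 2094 in the batch 1 controls and 3166 and 4451 in the batch 1 mutants, and 1618, 2469 and 1653 in the batch 2 controls and 2672, 2477 and 2227 in the batch 2 mutants. Both genes had higher means in the mutants of each batch, with groups that overlapped in batch 1 for *Eif4b* and in both batches for *Eif4h*. *Eif4a3* had a log2 fold change of 0.02 ± 0.11 (SE).

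Inhibitors of the cap-binding protein were not called. *Eif4ebp1* encodes the protein that, until mTOR phosphorylates it, keeps eIF4E from eIF4G. It had 525, 633 and 564 normalised counts in the batch 1 controls and 781 and 1013 in the batch 1 mutants, and 570, 1027 and 1142 in the batch 2 controls and 1561, 922 and 879 in the batch 2 mutants. The groups were apart in batch 1 only, and the log2 fold change was 0.45 ± 0.22 (SE; adjusted p = 0.414). *Eif4ebp2* had 0.31 ± 0.24 and *Eif4enif1*, whose product carries eIF4E into the nucleus, -0.47 ± 0.27 (adjusted p = 0.510). *Eif4ebp3* averaged 1.77 TPM in controls, and 64.2% of its 75-base words also occur in transcripts of another annotated gene, so its reads are uncertain.

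**Figure D5:**
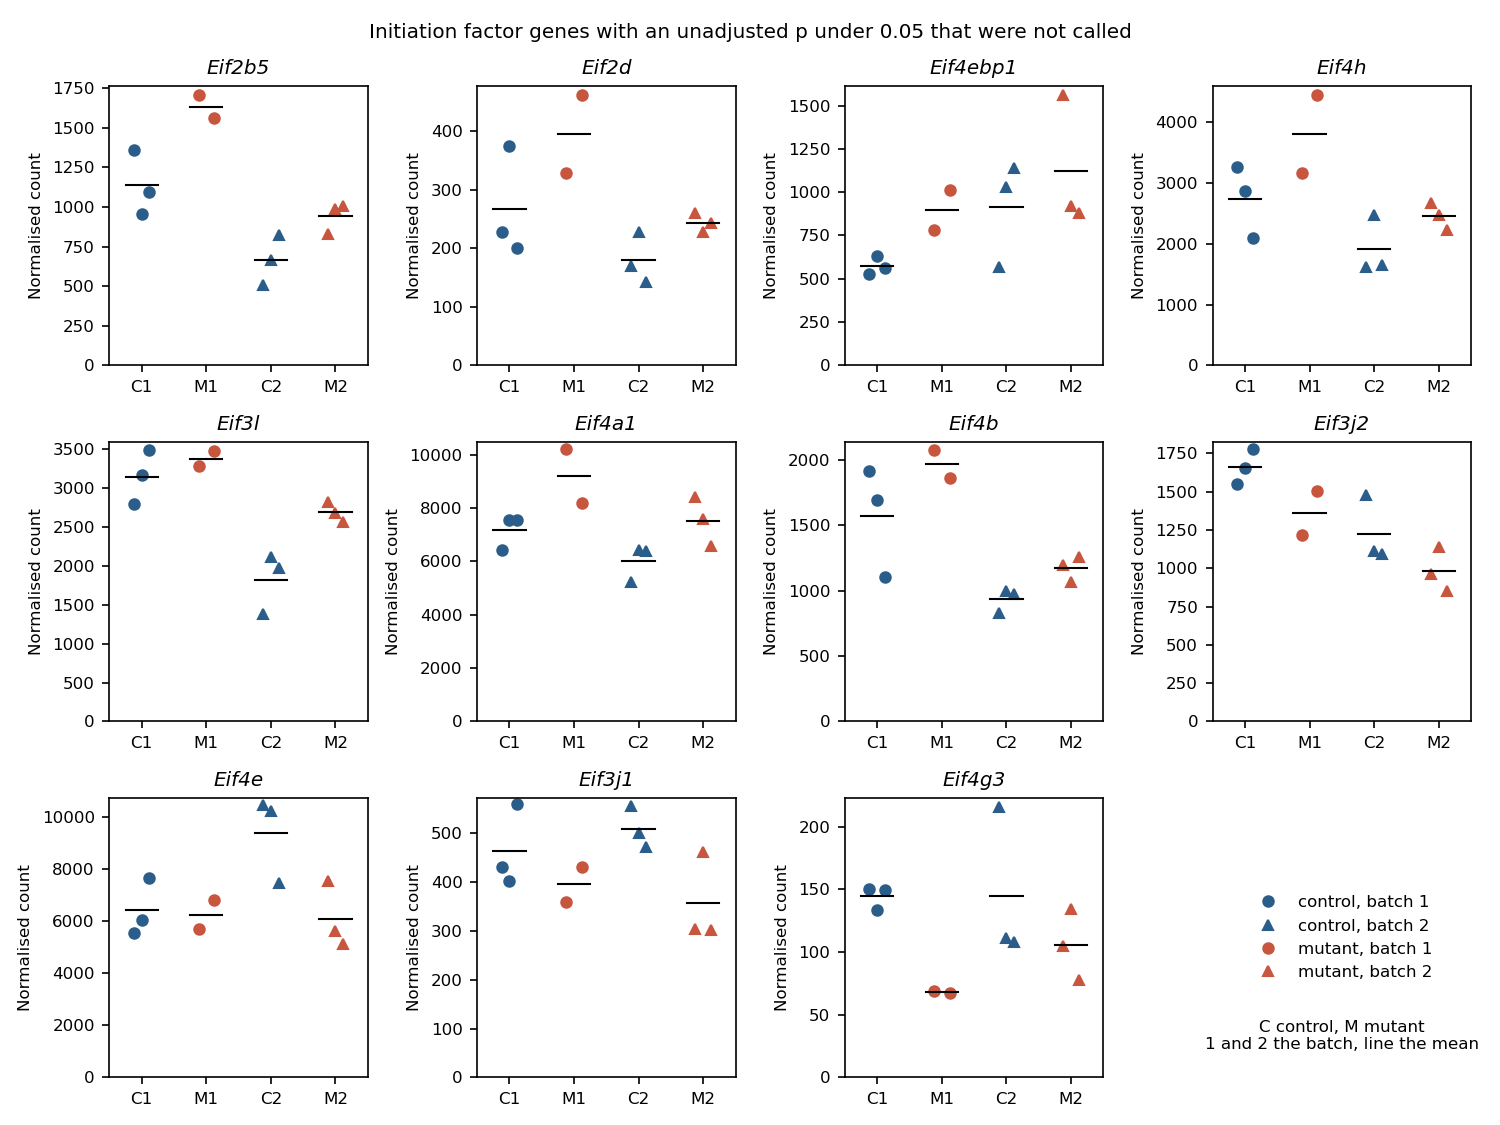
Normalised counts in each embryo of the 11 initiation factor genes with an unadjusted p under 0.05 that were not called (C control, M mutant, 1 and 2 the batch, lines the means within a batch, axes from 0). For *Eif2b5* and *Eif4a1* the mutants of each batch lie above its controls, and for the other 9 genes the groups overlap in at least 1 batch.

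No member had a batch by group interaction. The lowest unadjusted interaction p over the 49 genes was 0.0561 and every adjusted p was 1.00 in DESeq2, where 0.0382% of genes were called by that test and 4.30% had an unadjusted p under 0.05. Of the 49 genes, 34 had log2 fold changes of the same sign in batch 1 and batch 2, as did 6133 of all 10489 genes with a baseMean above 10.

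Of 30 other genes that act in initiation or its control, listed by symbol, 29 had a baseMean above 10, and 1 was called, against 1.45% of all genes. *Pabpc4*, a cytoplasmic poly(A)-binding protein, had 1389, 1256 and 1447 normalised counts in the batch 1 controls and 1801 and 1706 in the batch 1 mutants, and 1650, 1984 and 1900 in the batch 2 controls and 2415, 2691 and 2507 in the batch 2 mutants. Mutants were higher within each batch, and the log2 fold change was 0.42 ± 0.11 (SE; DESeq2 adjusted p = 0.0295). It was not called by edgeR, with an adjusted p of 0.241, and with single embryos left out it was called only without control 2 or control 6. The main poly(A)-binding protein gene, *Pabpc1*, had a log2 fold change of 0.00 ± 0.16 (SE).

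In all 5 of the 29 had an unadjusted p under 0.05, against 11.9% of all genes, and 4 of these did not pass the threshold. *Impact*, which encodes an inhibitor of the activation of GCN2, had a log2 fold change of -1.05 ± 0.31 (SE; adjusted p = 0.0539), from 26.5 ± 13.3 TPM (SD, n = 6) in controls to 12.8 ± 4.45 TPM (SD, n = 5) in mutants. It was near the threshold, and was called lower with batch 2 alone (log2 fold change -1.42, DESeq2 adjusted p = 0.0453), where *Pabpc4* was not, and without control 3, control 4 or mutant 4 (adjusted p = 0.0383, 0.0234 and 5.95e-04). *Bzw2*, an eIF5-mimic protein gene, had -0.57 ± 0.17 (SE; adjusted p = 0.0621), at 80.5 ± 13.5 and 54.7 ± 8.15 TPM. *Denr*, which encodes a partner of MCTS1 in ribosome recycling, had -0.39 ± 0.15 (adjusted p = 0.206), and *Paip1*, a cofactor of poly(A)-binding protein, had 0.44 ± 0.22 (adjusted p = 0.425). The median log2 fold change of the 29 genes was -0.05, with 13 above 0 and 16 below. The remaining genes, among them the stress-response phosphatase subunits *Ppp1r15a* and *Ppp1r15b*, *Mtor* and the eIF4E kinases *Mknk1* and *Mknk2*, did not reach an unadjusted p of 0.05.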

How the data were processed

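Single-embryo RNA-seq libraries (Smart-seq2, single-end) of 11 embryos were used. The authors mapped reads to GRCm38.p6 with STAR (version 2.6.0c), ran RSEM on GENCODE gene models and deposited, per embryo, the expected count, which can be fractional because reads shared between genes are divided, the TPM, the effective length and a posterior SD of the count. The authors' comparison table (means, fold changes and p-values) was not used. No molecular identifiers were used, so counts include PCR copies, and depth (3534735 to 8265840 per library) gives only counting precision. Symbols and coordinates were looked up by gene ID in a GENCODE release newer than the authors', also on GRCm38.

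Groups and batches came from the labels, and replicate numbers do not pair embryos. Nothing in the labels ties embryos to litters, so p-values measure the spread between these embryos. No pair of libraries of a group agreed within sampling noise. Rounded expected counts were fitted across all genes with DESeq2 (version 1.42.0; batch and group as terms, Wald test, Benjamini-Hochberg adjustment), and genes with an adjusted p under 0.05 and a baseMean above 10 were called. DESeq2 was the main test because the study used it, and the edgeR (version 4.0.16) quasi-likelihood adjusted p is given beside calls. Normalised counts are counts divided by DESeq2 size factors. The fits were tested on simulated data with known changes, in which a larger share of the DESeq2 calls was false than the threshold allows, and a smaller share of the edgeR calls than of the DESeq2 calls. Members and lists were chosen with earlier results of these data known. Named were all eIF3 subunits, members with an unadjusted p under 0.05, members on the study's binding list, the highest and lowest of each factor group, and paralogs by level. Alternatives were other tests (limma version 3.58.1 on log2 TPM), normalisations, filters, designs, single batches and leaving out each embryo, and, chosen after seeing the data, summed counts of genes that share sequence and permutation within batches. Shared sequence was counted as 75-base words of GENCODE transcripts.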

Additional observations from a re-analysis of the deposited data

Results flagged for a closer look

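Of 98 groups of values (49 genes in controls and in mutants), 4 held an embryo far from the rest of its group by Dixon's gap test. Chance gives about 5% where a group has no batch difference. Each group was taken over both batches together, although genes such as *Eif3b* differed between batches, so that share holds only roughly. The normalised count of *Eif2b3* was 1645 in mutant 1, against 1119 to 1251 in the other mutants. *Eif2s1* was also far higher in mutant 1, at 3999 against 2159 to 2661. *Eif2d* was at 376 in control 5, against 143 to 228 in the other controls. *Eif5a2* was at 8.69 in control 2, the library with the lowest summed count, against 28.9 to 41.0 in the others. None of these 4 genes was called.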

How the results depend on the processing

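*Eif3b* was called lower in mutants under all 23 alternatives run, with log2 fold changes from -1.44 (batch 1 alone) to -1.08 (batch 2 alone), and from -1.34 to -1.12 with an embryo left out. The difference in mean *Eif3b* TPM, mutant minus control, ranged from -83.8 to -58.4 with an embryo left out, and the log2 ratio to the other subunits differed by -1.61 to -1.39. The count of members called was 1 throughout, except 2 without control 3, when *Eif2b5* joined. No member had a called batch by group interaction in DESeq2, with edgeR or in DESeq2 with an embryo left out, the settings in which it was fitted. The count of all genes called was 151 and became 33 with edgeR, 22 with limma on log2(TPM + 1), 51 with no batch term, 78 with batch 1 alone and 48 with batch 2 alone, and ranged from 90 to 265 with an embryo left out (265 without control 2, 90 without mutant 2 and 91 without mutant 5), so percentages of genes called depend on the test. Of the 30 pathway genes, 0 were called with edgeR, limma, no batch term or batch 1 alone, 2 with at least 10 counts in 5 libraries, and 0 to 2 with an embryo left out (0 without control 1 or 5 or mutant 1, 2, 3 or 5, and 2 without control 3). The second gene with the count minimum was *Impact*, the gene called with batch 2 alone was *Impact* and not *Pabpc4*, and the 2 without control 3 were *Impact* and *Bzw2*, each lower in mutants. The cause of these shifts was not tested.

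Among uncalled members 20 of 48 changed sign under some setting, and 28 did not. With batch 1 alone the log2 fold changes were 0.15 (*Eif1a*), 0.16 (*Eif1ax*), 0.092 (*Eif1b*), -0.042 (*Eif2b3*), -0.024 (*Eif3c*), -0.10 (*Eif3g*), -0.14 (*Eif3h*), 0.24 (*Eif4a2*) and 0.21 (*Eif4g2*). With batch 2 alone they were -0.061 (*Eif1*), 0.17 (*Eif2ak3*), 0.27 (*Eif2b4*), -0.10 (*Eif2s3x*), -0.0085 (*Eif3a*) and 0.13 (*Eif5b*). *Eif4g2* was at 0.0052 with TMM factors, 0.0012 with edgeR and 0.0037 with no batch term. With an embryo left out the ranges were -0.026 to 0.13 (*Eif1*), -0.29 to 0.023 (*Eif1ax*), -0.011 to 0.13 (*Eif2ak1*), -0.43 to 0.033 (*Eif2ak3*), -0.18 to 0.029 (*Eif2b1*), -0.041 to 0.12 (*Eif2b3*), -0.14 to 0.070 (*Eif2b4*), -0.10 to 0.19 (*Eif2s3x*), -0.0063 to 0.092 (*Eif3a*), -0.16 to 0.0022 (*Eif3e*), -0.00035 to 0.089 (*Eif3g*), -0.12 to 0.061 (*Eif4a2*), -0.0074 to 0.060 (*Eif4a3*), -0.0073 to 0.23 (*Eif4g1*) and -0.15 to 0.11 (*Eif4g2*). Summing the counts of genes that share sequence, an alternative added after seeing the data, changed no call. No paired analysis was possible because the labels give no number that pairs controls with mutants. Controls mix wild-type and heterozygous embryos, and the deepest library held 8265840 counts against 3534735 in the shallowest.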

Other observations

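Pseudogenes of the family, left out of the group, had low counts apart from *Eif4a-ps4*. Of 10 processed pseudogenes *Eif4a-ps4* had a mean of 986 normalised counts and the next highest, *Eif5al3-ps*, 5.89. *Eif1-ps3* and *Eif3s6-ps3* were at 0 in all 11 libraries. The effective length of *Eif3b* averaged 2006 in controls and 2114 in mutants.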
